A study of Mus musculus with 10 samples.

Results

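The genes of autophagy, mitophagy and the lysosome were followed in cardiomyocytes (CMs) from old and young mice. A list of 36 gene symbols was matched to the deposited expression table, and 35 of them were found among its 37819 features. The remaining gene, Map1lc3b, was not analysed here. RNA was sequenced from CMs of old C57BL6J mice (20 months) and of young C57BL6J mice (3 months), with 5 libraries per age, from inbred animals of both sexes with no transgene or drug named in the sources. Hearts had been digested on a Langendorff perfusion setup, the myocytes were left to sediment, and CD31-, SCA1- and CD45-positive cells, which mark endothelial, stromal and blood cells, were taken out with magnetic beads. The labels number the libraries of each age but do not say that each came from a separate mouse. In the paper, a figure legend on the RNA sequencing names fewer mice per age group than there are libraries, while another gives n = 5. The p-values below therefore measure the spread between libraries. Levels are FPKM, the number of fragments scaled by transcript length and by the mapped fragments of the library, so that genes can be set side by side. In such bulk RNA, fewer cells of a type and less RNA per cell cannot be told apart.

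In autophagy a cell wraps part of its own cytoplasm in a membrane and delivers it to the lysosome, where acid hydrolases degrade it. The ULK1 kinase complex starts the process, the lipid kinase complex around Beclin 1 and VPS34 marks the site where the membrane forms, ATG9A and the WIPI proteins help the membrane to grow, and a conjugation system resembling ubiquitin transfer attaches ATG8 proteins (the LC3 and GABARAP families) to it. Receptors such as p62 tie cargo to the ATG8 proteins, and in mitophagy the cargo is a damaged mitochondrion, marked through PINK1 and parkin or through receptors in the outer mitochondrial membrane. In the heart, where CMs are rarely replaced and hold many mitochondria, loss of this turnover in mice impairs contraction. The transcription factor TFEB switches on many lysosomal and autophagy genes through a promoter element built around the letters CACGTG. Messenger RNA levels do not measure how much material passes through the pathway.

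The promoters of the listed genes are shown first, searched for those letters, because TFEB is itself on the list. At least 1 RefSeq window of 250 bases before and 50 bases after a start (build GRCm38.p6) was found for 27 of the 35 genes. The letters CACGTG, which read the same on both strands, were present in a window of 8 of these 27 genes (29.6%), compared with 8.09% of 27025 mouse genes. The longer run TCACGTGA, which contains the shorter one, was present for 3 genes (11.1%: Atg3, Ctsd and Mcoln1), compared with 1.125% of these mouse genes. The mouse genes were not limited to those expressed in CMs, so these shares do not separate listed genes from expressed genes. The 8 genes were Atg3, Atg5, Atg7, Bnip3, Ctsd, Ctsl, Lamp1 and Mcoln1. For 4 of them, 60 bases of the strand of the gene are given 5′ to 3′ with CACGTG in capitals: Lamp1 because it holds 4 copies in 60 bases, and the other 3 because they hold the longer run. A match is a description of the letters and does not show that a factor binds there.
Lamp1 (chr8:13159097-13159156, + strand): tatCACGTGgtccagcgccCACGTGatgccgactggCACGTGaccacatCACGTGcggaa
Mcoln1 (chr8:3500434-3500493, + strand): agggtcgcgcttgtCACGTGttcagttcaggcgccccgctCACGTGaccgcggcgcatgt
Atg3 (chr16:45158719-45158778, + strand): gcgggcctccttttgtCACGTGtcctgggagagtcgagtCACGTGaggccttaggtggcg
Ctsd (chr7:142387893-142387952, - strand): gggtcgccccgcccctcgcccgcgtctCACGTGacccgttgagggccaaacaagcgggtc

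All 35 genes were expressed in CMs of both ages, and their levels differed far more between genes than between ages. Mean levels over the 10 libraries ran from 3.41 FPKM for Park2 to 579.1 FPKM for Ctsd. None of the 35 genes was called between old and young CMs by limma on log2(FPKM + 1), with p-values adjusted over all 12340 features that averaged at least 1 FPKM and a threshold of 0.05. In the same test 220 of the 12340 features were called (1.78%): 85 had higher FPKM in old CMs (0.689%) and 135 had lower FPKM (1.09%). With an unadjusted p under 0.05 there were 7 of the 35 genes (20.0%), against 20.9% of all tested features, so the share among the listed genes lay near that of the transcriptome as a whole. Of these 7, Atg13 and Optn were higher in old CMs (3.51% of all features had such a p in this direction), and Tfeb, Atg9a, Rab7, Atg3 and Ctsl were lower (17.4% of all features). The 5 old and the 5 young values did not overlap for 1 of the 35 genes, Atg13 (2.86%), against 6.91% of all tested features (1.19% with all old values above the young ones and 5.72% with all below).

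**Figure D1:**
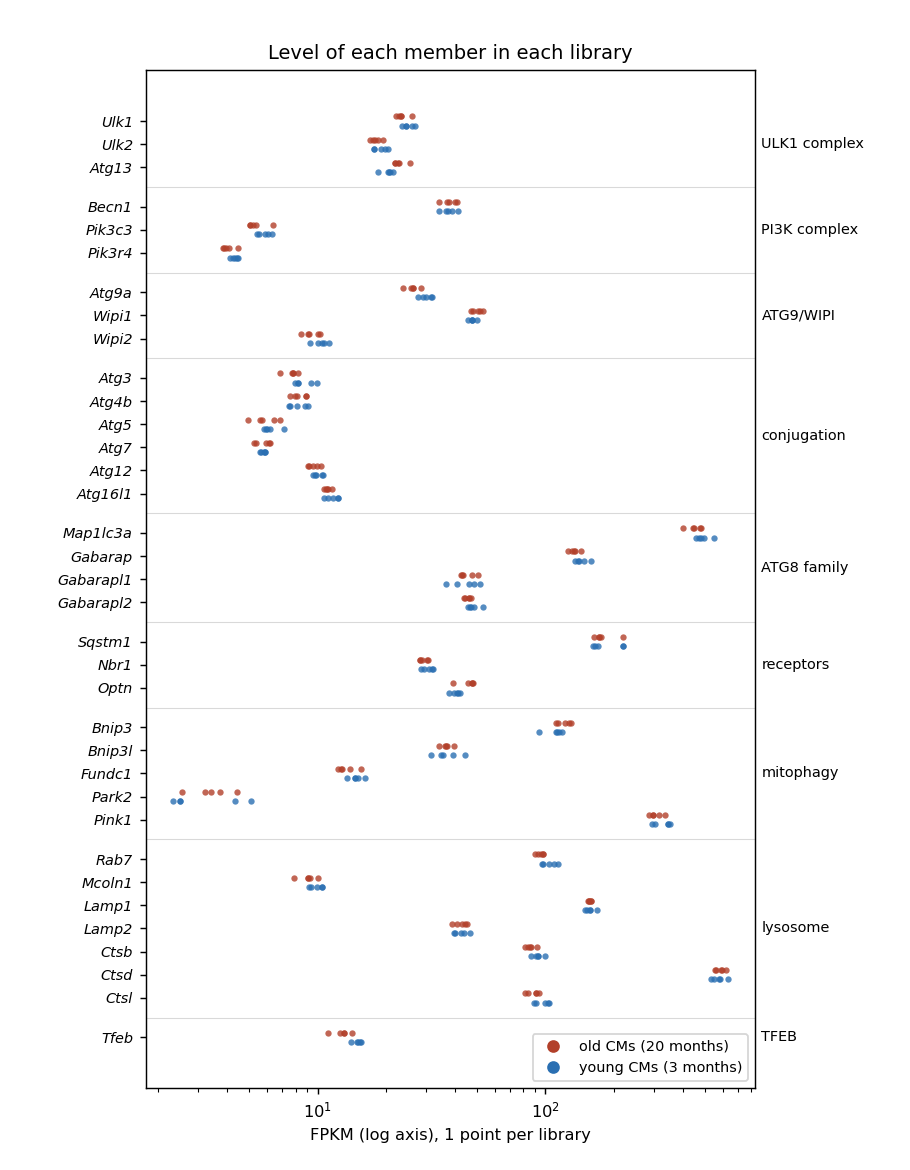
Level of each of the 35 genes in each library, in FPKM on a log axis, with 1 point per library, old CMs (20 months) drawn above young CMs (3 months), and genes grouped by their role. The genes span 3.41 to 579.1 FPKM in mean level, while the points of the ages lie close together for nearly every gene.

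Differences between the ages are given as log2 of old minus young CMs on the log2(FPKM + 1) scale. Over the 35 genes they ran from -0.21 for Tfeb to 0.17 for Optn, and their median was -0.064, beside -0.058 for all tested features. There were 25 genes below 0 (71.4%) and 10 above 0, beside 68.7% of all features below 0. Apart from Park2, the 95% intervals of the other 34 genes all lay between -0.34 and 0.30, which are ratios of 0.788 and 1.23 in FPKM + 1. The spread within an age was also set beside that of other features. The median coefficient of variation of the 35 genes was 6.44% in old and 6.35% in young libraries, beside 7.78% in old and 9.24% in young libraries for the 9064 tested features with means of 3 to 700 FPKM. Within that range the features were not matched to the genes by level, so this does not show that the genes are steadier than others of their level.

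**Figure D2:**
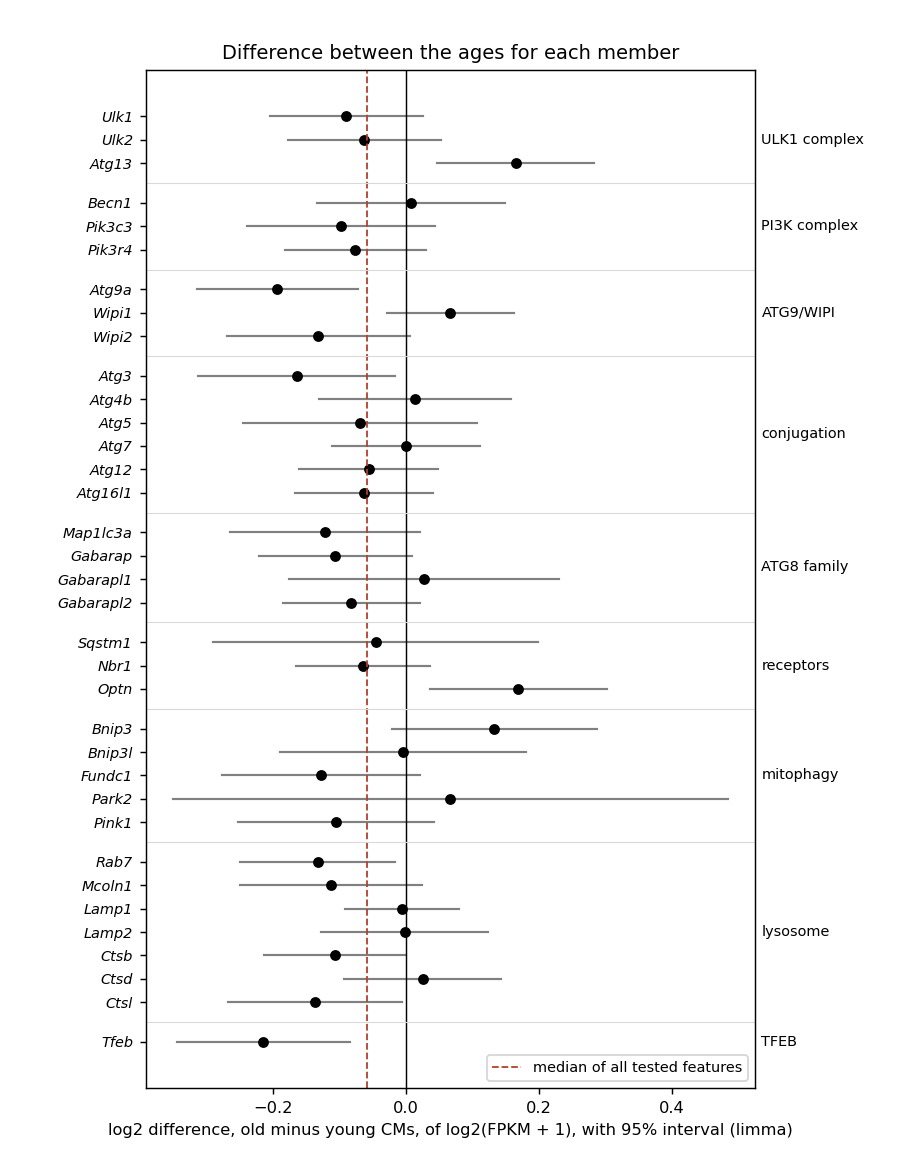
Log2 difference of old minus young CMs for each of the 35 genes (points) with its 95% interval from limma (lines), grouped by role, and the median of all tested features as a dashed line. The intervals of 7 genes exclude 0 before adjustment, and that of Park2, from -0.35 to 0.48, is the widest.

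Among the genes that start autophagy, Atg13 was the one whose ages did not overlap. Atg13 (chr2:91514775-91550733 in mm9) encodes the scaffold that holds the ULK1 kinase complex together. Its level was 22.7, 25.4, 22.5, 22.0 and 21.9 FPKM in the old libraries, against 20.3, 20.6, 18.5, 21.5 and 20.7 FPKM in the young libraries. Every old library stood above every young one, and old library 2 stood apart above the other old libraries. The means were 22.9 ± 1.46 FPKM in old CMs and 20.3 ± 1.11 FPKM in young CMs (SD, n = 5 each), a log2 difference of 0.17 (95% interval 0.047 to 0.28) that did not pass the threshold (limma, unadjusted p = 0.0107, adjusted p = 0.125). The kinase itself, Ulk1 (chr5:111213507-111239116), the highest of these genes, was at 22.8, 25.9, 23.3, 22.0 and 23.3 FPKM in old libraries, against 24.4, 26.6, 23.6, 24.4 and 25.9 FPKM in young libraries. The ages overlapped, although 4 of the 5 old libraries lay below the lowest young one (log2 difference -0.089, adjusted p = 0.362). Ulk2, which encodes a related kinase, averaged 18.0 FPKM in old and 18.9 FPKM in young CMs.

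The genes of the lipid kinase complex lay close together between the ages. Becn1 (chr11:101147266-101163600), which encodes Beclin 1, was the highest of them, with 41.0, 37.6, 33.9, 40.1 and 36.8 FPKM in old libraries, against 41.5, 37.2, 36.4, 39.0 and 34.2 FPKM in young libraries. The ages overlapped over nearly their whole range, and the log2 difference was 0.0084 (95% interval -0.13 to 0.15, adjusted p = 0.962). Of the exon bases of Becn1, 43.9% also belong to Cntd1 on the other strand, and since the sources used here do not state that reads were counted by strand, reads from these genes could be mixed. Exon bases shared with another gene made up 17.3% of Sqstm1, 16.2% of Ctsb, 7.8% of Rab7, 7.8% of Lamp1 and 6.5% of Ctsd, and a smaller share of Gabarapl1 and Optn. Pik3c3, which encodes the catalytic subunit VPS34, averaged 5.41 ± 0.552 FPKM in old CMs and 5.84 ± 0.347 FPKM in young CMs. Its regulatory partner Pik3r4 averaged 4.06 ± 0.262 FPKM in old and 4.32 ± 0.135 FPKM in young CMs. For each of these subunits, 4 old libraries lay below the lowest young one and old library 5 above the highest, with log2 differences of -0.097 and -0.076 that did not pass (adjusted p = 0.429 and 0.407).

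Of the genes for membrane supply, Atg9a had the largest difference in the FPKM as deposited, while after median-ratio scaling Wipi1 was as far above 0 (0.13) as Atg9a was below it (-0.13). Atg9a (chr1:75177440-75188497) encodes the transmembrane lipid scramblase that arrives with the first vesicles. It was at 23.8, 28.5, 26.3, 25.8 and 26.2 FPKM in old libraries, against 31.5, 31.7, 29.1, 27.7 and 30.0 FPKM in young libraries. Only old library 2 reached into the range of the young libraries. The means were 26.1 ± 1.66 FPKM in old CMs and 30.0 ± 1.69 FPKM in young CMs, a log2 difference of -0.19 (95% interval -0.31 to -0.072), with an unadjusted p of 0.00506 and an adjusted p of 0.0981 (limma). Wipi1 (chr11:109434645-109473281), whose product binds the lipid made by VPS34, was the highest of the group, with 50.8, 53.0, 51.6, 48.2 and 47.2 FPKM in old libraries, against 47.6, 47.7, 50.2, 45.7 and 47.6 FPKM in young libraries. Here 3 old libraries lay above all young ones and the others among them (log2 difference 0.067, adjusted p = 0.414). Its relative Wipi2, which recruits the conjugation machinery, averaged 9.37 FPKM in old and 10.3 FPKM in young CMs (log2 difference -0.13, adjusted p = 0.261).

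The conjugation genes were low and even, between 5.75 and 11.6 FPKM in the means of either age. Atg3 (chr16:45158898-45188651), the E2-like enzyme that hands ATG8 proteins to lipid, was at 8.21, 7.81, 7.77, 6.86 and 7.69 FPKM in old libraries, against 9.91, 8.20, 8.23, 9.39 and 7.92 FPKM in young libraries. All but 1 of the old libraries lay below the lowest young one, and young libraries 1 and 4 stood high. The log2 difference was -0.16 (95% interval -0.31 to -0.016, unadjusted p = 0.0335, adjusted p = 0.196). Atg16l1 (chr1:89652445-89689003), which places the conjugation complex on the membrane, was the highest of the group at 10.9, 11.0, 11.6, 11.1 and 10.7 FPKM in old libraries, against 12.2, 12.3, 11.7, 10.6 and 11.1 FPKM in young libraries. These ranges overlapped, with the old libraries inside that of the young ones (log2 difference -0.063, adjusted p = 0.502). Atg7, the E1-like enzyme of both conjugation reactions, averaged 5.77 ± 0.433 FPKM in old and 5.75 ± 0.134 FPKM in young CMs, a log2 difference of 0.0008. For Atg5, Atg12 and the protease gene Atg4b the differences were -0.069, -0.056 and 0.014 (adjusted p of 0.680, 0.559 and 0.935).

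Among the 4 ATG8 genes found in the table, Map1lc3a was the highest. Map1lc3a (chr2:155102033-155103809), which encodes an LC3 protein, was at 401, 483, 450, 446 and 478 FPKM in old libraries, against 551, 456, 494, 473 and 482 FPKM in young libraries. Old library 1 was the lowest and young library 1 the highest, and the other libraries overlapped. The means were 451.7 ± 32.6 FPKM in old CMs and 491.3 ± 35.9 FPKM in young CMs (log2 difference -0.12, 95% interval -0.26 to 0.022, adjusted p = 0.320). Gabarap followed with 133.6 ± 6.43 FPKM in old and 143.9 ± 8.99 FPKM in young CMs (adjusted p = 0.278). Gabarapl1 and Gabarapl2 stood near 45 FPKM in old CMs (45.4 and 45.6 FPKM) and at 44.7 and 48.3 FPKM in young CMs, with overlapping libraries. Their mean normalized counts in the deposited comparison lay further apart. These were 1079.1 for Gabarapl1 (1765 exon bases) and 578.3 for Gabarapl2 (2325 exon bases). A difference between Gabarapl1 and Gabarapl2 was not tested. Within a library, where scaling cancels, Map1lc3a made up 66.8 ± 0.95% of the summed FPKM of these 4 genes in old CMs and 67.4 ± 1.43% in young CMs.

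Among the cargo receptors, Optn had its higher values in old CMs, while Sqstm1 was split across the ages. Sqstm1 (chr11:50012868-50024329), which encodes p62, was at 163, 176, 172, 172 and 219 FPKM in old libraries, against 170, 165, 162, 219 and 218 FPKM in young libraries. Old library 5 and young libraries 4 and 5 formed a high level near 218 FPKM, and the other 7 lay between 162 and 176 FPKM, so the spread cut across the ages. The means of 180.4 ± 22.0 FPKM in old and 186.9 ± 28.9 FPKM in young CMs gave a log2 difference of -0.045 (95% interval -0.29 to 0.20, adjusted p = 0.869). Optn (chr2:4941688-4985097), whose product optineurin binds ubiquitin on damaged mitochondria, was at 47.5, 45.5, 48.0, 47.7 and 39.2 FPKM in old libraries, against 41.5, 40.8, 37.6, 39.7 and 42.2 FPKM in young libraries. Old libraries 1 to 4 lay above every young library, and old library 5 lay among the young ones. The log2 difference was 0.17 (95% interval 0.036 to 0.30, unadjusted p = 0.0176, adjusted p = 0.150). Nbr1, a further ubiquitin-binding receptor, averaged 29.1 FPKM in old and 30.5 FPKM in young CMs (log2 difference -0.064, adjusted p = 0.470).

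In the mitophagy group the kinase that senses damaged mitochondria was abundant and its partner ligase was scarce. Pink1 (chr4:137869324-137882222) was at 284, 335, 296, 296 and 315 FPKM in old libraries, against 295, 346, 303, 347 and 353 FPKM in young libraries. The ages overlapped, with the 3 highest values all in young libraries, and the log2 difference was -0.10 (95% interval -0.25 to 0.043, adjusted p = 0.412). Park2, which encodes the ubiquitin ligase parkin, was at 4.42, 3.74, 2.54, 3.19 and 3.40 FPKM in old libraries, against 2.49, 2.48, 2.33, 5.12 and 4.36 FPKM in young libraries. The old values lay inside the range of the young ones, whose coefficient of variation was 38.6%, the highest of the 35 genes, and its mean normalized count over the libraries, 30.1 in the deposited comparison, was the lowest on the list. The ratio of Pink1 to Park2 within a library was 91.2 ± 18.6 in old CMs and 107.3 ± 31.4 in young CMs. The symbol Park2 was carried by 2 features, of which the one with the higher mean (chr17:11259991-12254519) was used above. The ratio to Pink1 therefore leaves the other feature out. The other (chr17:11033258-11133829) averaged 2.19 ± 0.864 FPKM in old CMs and 0.906 ± 0.528 FPKM in young CMs, a log2 difference of 0.75 (unadjusted p = 0.00832, adjusted p = 0.117) with overlap between the ages.

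The receptors that sit in the outer mitochondrial membrane showed no shared direction. Bnip3 was at 129, 127, 114, 111 and 121 FPKM in old libraries, against 118, 111, 93.5, 115 and 113 FPKM in young libraries. In 3 old libraries it exceeded every young one, and young library 3 was the lowest of all (log2 difference 0.13, 95% interval -0.021 to 0.29, adjusted p = 0.310). Its relative Bnip3l, also called Nix, averaged 36.8 ± 2.03 FPKM in old and 37.1 ± 4.97 FPKM in young CMs, a log2 difference of -0.0040. Fundc1 averaged 13.4 ± 1.33 FPKM in old and 14.8 ± 0.937 FPKM in young CMs (log2 difference -0.13, adjusted p = 0.314).

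The lysosomal group held the most abundant transcript of the list. Ctsd (chr7:149557053-149573943), which encodes the aspartic protease cathepsin D, was at 555, 620, 590, 560 and 595 FPKM in old libraries, against 630, 550, 532, 576 and 583 FPKM in young libraries. The ages overlapped throughout (log2 difference 0.026, 95% interval -0.092 to 0.14, adjusted p = 0.839). Lamp1, a heavily glycosylated protein of the lysosomal membrane, was the steadiest gene in old CMs, at 156.0 ± 2.24 FPKM in old and 156.8 ± 7.19 FPKM in young CMs (95% interval of the log2 difference -0.091 to 0.080). Lamp2, which is needed for the lysosome to fuse with autophagosomes, averaged 42.5 ± 2.51 FPKM in old and 42.6 ± 2.85 FPKM in young CMs.

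In the FPKM as deposited, lower values in old CMs without an adjusted call were found for a GTPase and a pair of cysteine cathepsins. Rab7 (chr6:87949100-87995264), the small GTPase of late endosomes, was at 97.2, 97.7, 89.9, 95.2 and 92.3 FPKM in old libraries, against 114, 108, 103, 97.3 and 96.2 FPKM in young libraries. The lowest young libraries, 4 and 5, overlapped with the highest old ones (log2 difference -0.13, 95% interval -0.25 to -0.016, unadjusted p = 0.0298, adjusted p = 0.188). Ctsl (chr13:64464522-64471614), which encodes cathepsin L, was at 93.7, 91.3, 81.7, 91.2 and 83.4 FPKM in old libraries, against 99.6, 103, 89.5, 103 and 90.6 FPKM in young libraries. Old libraries 3 and 5 lay below all young ones and the others overlapped with them (log2 difference -0.14, unadjusted p = 0.0418, adjusted p = 0.220). Ctsb, which encodes cathepsin B, averaged 85.8 ± 4.07 FPKM in old and 92.5 ± 4.85 FPKM in young CMs (log2 difference -0.11, adjusted p = 0.242). Mcoln1, which encodes a calcium channel of the lysosomal membrane, averaged 9.06 ± 0.762 FPKM in old and 9.86 ± 0.599 FPKM in young CMs (log2 difference -0.11, adjusted p = 0.335). Cathepsin D made up 77.0 ± 0.942% of the summed FPKM of the 3 cathepsin genes in old libraries (76.0 to 78.1%) and 75.2 ± 1.17% in young libraries (73.9 to 76.7%), and these ranges overlapped.

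Tfeb had the largest difference of the 35 genes in the FPKM as deposited, though not after median-ratio or upper-quartile scaling. Tfeb (chr17:47873979-47929368) was at 11.1, 14.1, 12.5, 13.1 and 13.1 FPKM in old libraries, against 15.3, 15.4, 14.8, 14.0 and 15.1 FPKM in young libraries. Old library 2 reached just above the lowest young library, young library 4, and the other 4 old libraries lay below all young ones. The means were 12.8 ± 1.11 FPKM in old CMs and 14.9 ± 0.574 FPKM in young CMs, a log2 difference of -0.21 (95% interval -0.34 to -0.083), with an unadjusted p of 0.00430 and an adjusted p of 0.0924 (limma). The genes with CACGTG in their promoter windows did not share one direction: the 8 log2 differences ran from -0.16 for Atg3 to 0.13 for Bnip3 with a median of -0.037, beside -0.21 to 0.17 with a median of -0.076 for the 19 genes without it. The median of all tested features was -0.058. A link between the level of Tfeb and that of these genes was not tested. In Lamp1, whose 4 copies are printed above, the difference was -0.0058.

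**Figure D3:**
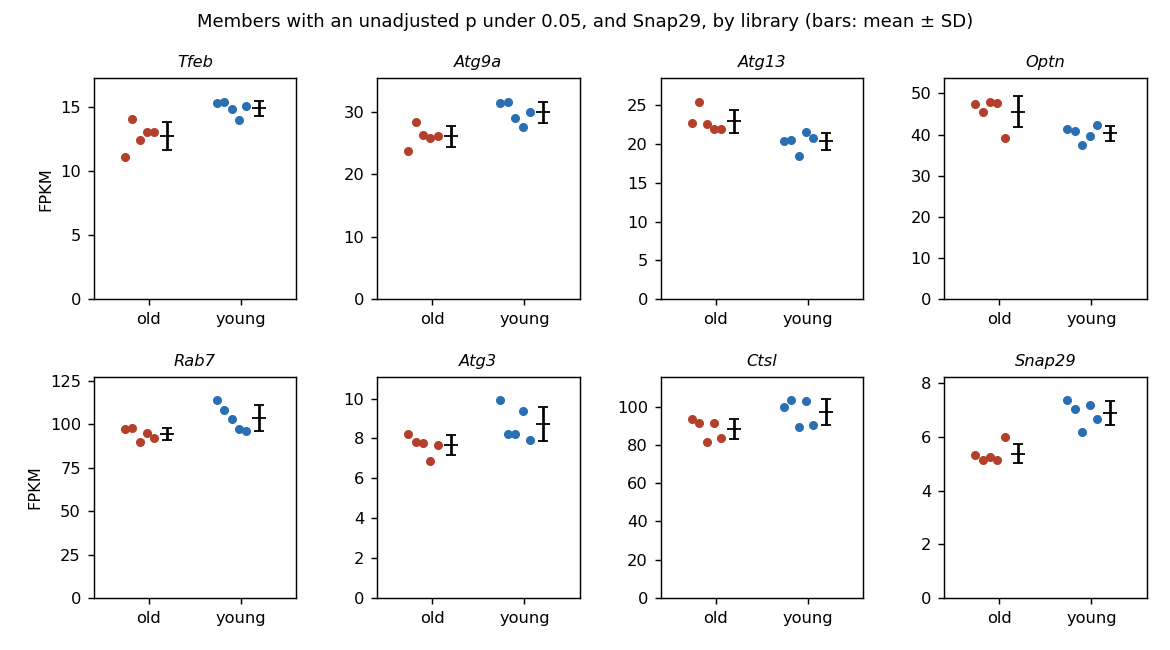
FPKM in each library of the 7 listed genes with an unadjusted p under 0.05 and of Snap29, old CMs on the left and young CMs on the right of each panel, with bars for the mean ± SD (n = 5 each). Atg13 and Snap29 are the panels in which the ages do not overlap.

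The balance of higher and lower genes depended on how the libraries were scaled. With FPKM as deposited, 10 genes lay above 0 and 25 below. After median-ratio scaling, which brings the median of all features to -0.0001, 18 lay above 0 and 17 at or below, and the median of the 35 genes was 0.0. With upper-quartile scaling 20 lay above 0 and 15 below, the median of the 35 genes was 0.018, and the median of all features was 0.016. Atg13 was then called, at 0.25 on the log2 scale (adjusted p = 0.0397), whereas it reached 0.23 after median-ratio scaling (adjusted p = 0.0617). Optn and Bnip3 were at 0.24 and 0.20 with median-ratio scaling, with adjusted p of 0.155 and 0.164. Tfeb and Atg9a stayed below 0 under both scalings, at -0.15 and -0.13 with median-ratio scaling (adjusted p = 0.322 and 0.340) and at -0.13 and -0.11 with upper-quartile scaling (adjusted p = 0.399 and 0.429). Rab7, Ctsl and Ctsb came nearer to 0, at -0.065, -0.069 and -0.039 with median-ratio and -0.045, -0.049 and -0.019 with upper-quartile scaling. As deposited, 2 genes were higher and 5 lower at an unadjusted p under 0.05 (limma). With median-ratio scaling 4 were higher and 2 lower, beside 13.8% of all features in either direction. With upper-quartile scaling 6 were higher and 0 lower, beside 13.7%. The calls over all features moved in the same way. They were 85 up and 135 down in old CMs as deposited, 105 up and 30 down after median-ratio scaling, and 135 up and 29 down after upper-quartile scaling.

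**Figure D4:**
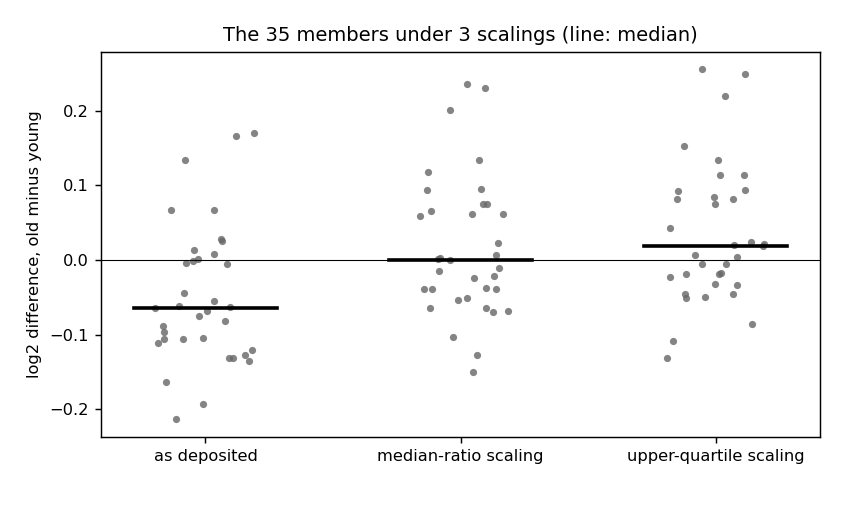
Log2 difference of old minus young CMs for the 35 genes (points) under FPKM as deposited, median-ratio scaling and upper-quartile scaling, with the median of the 35 genes as a line. The medians are -0.064, 0.0 and 0.018.

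Cell type markers were read beside these values. All 10 CM markers averaged over 1 FPKM, and their summed level was 41010 to 46690 FPKM in old and 42890 to 51530 FPKM in young libraries. Endothelial markers, 10 of 10 above 1 FPKM, summed to 437.4 to 831.8 FPKM in old and 429.6 to 938.4 FPKM in young libraries, although these cells had been removed. Macrophage and leukocyte markers, which matter here because such cells are rich in lysosomes, summed to 32.6 to 57.9 FPKM in old and 28.8 to 83.5 FPKM in young libraries, and Ptprc, Adgre1, Fcgr1, Mrc1, Cx3cr1 and Cd163 were each under 1 FPKM. Fibroblast markers summed to 53.4 to 151.2 FPKM in old and 55.3 to 141.0 FPKM in young libraries, and mural cell markers to 128.4 to 212.2 FPKM in old and 138.9 to 218.3 FPKM in young libraries. All 10 fibroblast markers had log2 differences above 0 (median 0.11) and all 8 mural markers below 0 (median -0.12). None of these markers was called, and 1 of each of these lists had an unadjusted p under 0.05: Postn (0.57, adjusted p = 0.233) and Acta2 (-0.75, adjusted p = 0.193). Of the 10 CM markers, 8 lay below 0 (80.0%, beside 68.7% of all features), with a median of -0.074. None was called by limma, and 2 had an unadjusted p under 0.05 (20.0%, beside 20.9% of all features). They were Tnni3 (-0.22, adjusted p = 0.0886), whose ages did not overlap, and Atp2a2 (-0.18, adjusted p = 0.189). Among the mural genes, Rgs5, Pdgfrb, Kcnj8, Tagln and Myh11 shared a pattern. Each was highest in old library 1 among old and in young library 4 among young libraries. Abcc9, Acta2 and Cspg4 did not share it. The mural sums include Abcc9, which averaged 48.23 FPKM in old and 52.75 FPKM in young CMs. In old library 1 and young library 4, Rgs5 was at 117 and 115 FPKM, its highest values. Abcc9 was at 50.3 and 50.7 FPKM there, while Acta2 was lowest in old library 1 (13.9 FPKM) and highest in young library 1 (64.8 FPKM). The part of the cell type markers in the values of the 35 genes was not tested beyond the covariate below. The mean log2 level of the stromal markers was highest in old library 1 (3.29) and young library 4 (3.35). With that mean as a covariate none of the 35 genes was called (lowest adjusted p = 0.0571, for Tfeb). Without these 2 libraries none was called either (lowest adjusted p = 0.134, for Tfeb), with 4 genes at an unadjusted p under 0.05, beside 18.0% of all features in that analysis.

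The wider pathway was read from 132 further genes in 5 lists, of which 131 were found and 129 were tested. None was higher and 1 was lower in old CMs by limma, beside 0.689% and 1.09% of all features, and 23 (17.8%) had an unadjusted p under 0.05, beside 20.9% of all features. The ages did not overlap for 1 gene higher and 6 genes lower in old CMs (5.43% of the 129, beside 6.91% of all features). The called gene was Snap29, which encodes a SNARE protein that fuses autophagosomes with lysosomes. It was at 5.34, 5.15, 5.25, 5.16 and 6.01 FPKM in old libraries, against 7.37, 7.06, 6.20, 7.19 and 6.68 FPKM in young libraries. All old libraries lay below all young ones, with means of 5.38 ± 0.359 FPKM in old and 6.90 ± 0.465 FPKM in young CMs and a log2 difference of -0.31 (SE 0.056, adjusted p = 0.0309). The call was kept in 10 of 20 alternative analyses. It was lost when old library 1, 2, 3 or 4 or young library 1, 2, 4 or 5 was left out (adjusted p = 0.0563 to 0.0940), when old library 1 and young library 4 were left out together (adjusted p = 0.112), and with the replicate number as a block (adjusted p = 0.146). Its partner on the autophagosome, Stx17, went the other way in the means, at 10.2 ± 0.923 FPKM in old and 8.85 ± 1.11 FPKM in young CMs (adjusted p = 0.232).

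Of the 28 other autophagy genes, 1 was called, Snap29, and the median log2 difference was -0.063. Retreg1 (Fam134b in the deposited table), a receptor for the turnover of endoplasmic reticulum, was at 92.2 ± 5.87 FPKM in old and 79.0 ± 7.15 FPKM in young CMs, and its ages did not overlap (log2 difference 0.22, adjusted p = 0.119). Uvrag and Atg2b had differences of -0.14 and -0.15 (adjusted p = 0.154 and 0.221). None of 13 other mitophagy genes had an unadjusted p under 0.05 (median -0.060), and the smallest adjusted p was that of Phb2 (0.251).

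Of 43 lysosomal hydrolase and membrane genes none was called, and the median was -0.0078. An unadjusted p under 0.05 was found for 8 (18.6%, beside 20.9% of all features), 5 of them lower and 3 higher in old CMs. The cysteine cathepsin gene Ctsf averaged 18.5 ± 1.16 FPKM in old and 21.6 ± 1.03 FPKM in young CMs without overlap (log2 difference -0.21, adjusted p = 0.0721). Tmem55b averaged 6.996 ± 0.295 FPKM in old and 7.65 ± 0.203 FPKM in young CMs, also without overlap (adjusted p = 0.148). Ctsc, which activates serine proteases of blood cells, averaged 5.76 ± 1.11 FPKM in old and 7.99 ± 1.77 FPKM in young CMs (adjusted p = 0.159). Also among the 5 lower ones were Idua and Lgmn, with log2 differences of -0.18 and -0.15 (adjusted p = 0.159 and 0.179). The 3 higher ones were Asah1, which encodes acid ceramidase, Ctss, which encodes cathepsin S, and Cd63, with log2 differences of 0.25, 0.42 and 0.19 (adjusted p = 0.182, 0.211 and 0.222). Psap, the precursor of the saposins, was listed at 0 in old library 2 but stood at 475.6 to 512.6 FPKM in the other old and 517.7 to 551.2 FPKM in the young libraries.

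The 16 subunits of the V-ATPase, the pump that acidifies the lysosome, had a median of -0.056 and no call, with 2 at an unadjusted p under 0.05 (12.5%, beside 20.9% of all features). Atp6v1b2 averaged 26.6 ± 0.538 FPKM in old and 31.6 ± 2.93 FPKM in young CMs without overlap (log2 difference -0.24, adjusted p = 0.0779), and was called without young library 4 (adjusted p = 0.0321). Among 29 genes of mTORC1, AMPK and the TFEB family, which set the rate of autophagy by nutrient state, none was called and the median was -0.062. Of these, 8 had an unadjusted p under 0.05 (27.6%, beside 20.9% of all features), 7 of them lower in old CMs, a direction in which 17.4% of all features had such a p. Stk11, which encodes the kinase LKB1 that activates AMPK, averaged 46.7 ± 0.864 FPKM in old and 54.5 ± 4.01 FPKM in young CMs without overlap (log2 difference -0.22, adjusted p = 0.0622). Prkag2, which encodes a form of the AMPK subunit that binds adenine nucleotides, averaged 11.1 ± 1.14 FPKM in old and 9.03 ± 0.661 FPKM in young CMs (log2 difference 0.26, adjusted p = 0.0907). Its more abundant relative Prkag1 went the other way in the means, at 49.96 ± 3.77 FPKM in old and 53.5 ± 2.49 FPKM in young CMs (log2 difference -0.099, adjusted p = 0.348).

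**Figure D5:**
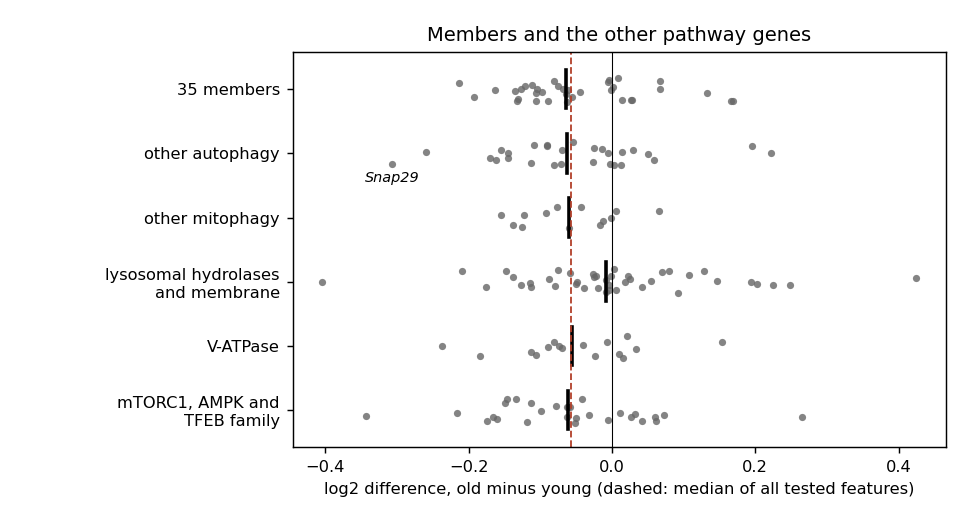
Log2 difference of old minus young CMs for the 35 genes and for the tested genes of 5 further lists (points), with the median of each list as a bar and that of all tested features as a dashed line. Psap is left out because it is listed at 0 in 1 library, and Snap29 marks the gene that was called.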

How the data were processed

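RNA of purified CMs from old (20 months) and young (3 months) mice, 5 libraries per age, was sequenced as paired-end reads on a single flow cell. The authors aligned the reads to mm9 with TopHat2, kept unique alignments, counted reads per gene with HTSeq, compared the ages with DESeq2 and determined FPKM with Cufflinks. Further tool versions and the use of strand in counting are not given in the sources used here. The deposited FPKM were used as given after 1 stray header line was removed. They were scaled by length and by mapped fragments, but their totals per library ran from 1155614 to 3289461. The deposited comparison of the authors also holds a signal, the mean normalized count over all libraries, which was used as the only guide to depth: it summed to 12452210 over rows that name a gene, and 73.9% of all such counts fell in 5 rows that name none. Its fold changes, p-values and 10 columns of values per sample were not used. The depth of single libraries is unknown, so no counting intervals are given.

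The test was limma 3.58.1 in R 4.3.3 on log2(FPKM + 1), with lmFit and trended eBayes, over the 12340 features that averaged 1 FPKM or more. It was two-sided, p-values were adjusted after Benjamini and Hochberg over all of these features, and the threshold was 0.05. Log2 differences on this scale understate changes of low genes. No count model was used, because the headers of those 10 unused columns match no library's label, and the values that can be assigned to a library are FPKM. Where a symbol had several rows, the row with the highest mean was kept. Of the 35 genes, those called, those whose ages do not overlap and the highest of each role were to be given with every library, and in each further list up to 4 with the smallest p were to be named. Atg9a, Atg3, Optn, Rab7, Ctsl, Tfeb as the largest difference, Park2, Bnip3, Stx17, Lgmn, Asah1, Ctss, Cd63, Psap and Prkag1 were singled out after their values were seen. The genes and lists were chosen with earlier results of these data known. Gene coordinates are from GENCODE on mm9, and promoters from RefSeq on GRCm38.p6. As alternatives, the pseudocount was set to 0.1, the filter on low values was dropped or raised to 5 FPKM, libraries were rescaled by median ratio or upper quartile, the replicate number was made a block, eBayes was made robust, array weights were given, stromal markers were a covariate, and each library in turn, or old library 1 and young library 4 together, was left out. Plots were drawn with matplotlib 3.10.9 in Python 3.11.15.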

Additional observations from a re-analysis of the deposited data

Results flagged for a closer look

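In 6 of 70 groups of 5 libraries (each of the 35 genes at each age), the highest or lowest library lay farther from the others than Dixon's 95% limit of 0.71 of the range allows, and chance alone flags about 1 in 20 groups. Atg13 was 25.4 FPKM in old library 2, while the other old libraries lay between 21.9 and 22.7 FPKM. Old library 5 stood apart for 3 genes: Pik3c3 at 6.37 FPKM (5.05 to 5.36 FPKM in the other old libraries), Sqstm1 at 219 FPKM (163 to 176 FPKM) and Optn at 39.2 FPKM (45.5 to 48.0 FPKM). Without that library Optn had an adjusted p of 0.0508 by limma, against 0.150 with it. Atg5 was 7.09 FPKM in young library 1 (5.83 to 6.19 FPKM in the other young libraries), and Bnip3 was 93.5 FPKM in young library 3 (111 to 118 FPKM).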

How the results depend on the processing

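No listed gene was called lower in old CMs under any of the 20 alternatives, and none was called higher except with upper-quartile scaling, which called 1, Atg13 (0.25, adjusted p = 0.0397). The median log2 difference of the 35 genes was 0.0 with median-ratio scaling and 0.018 with upper-quartile scaling, and -0.085 to -0.053 when single libraries were left out. Of the further pathway genes, 1 was called higher with upper-quartile scaling (Prkag2) and 1 with stromal markers as a covariate (Ctss). There were 2 called lower with a minimum of 5 FPKM (Snap29 and Stk11), with array weights (Snap29 and Atp6v1b2) and with the covariate (Snap29 and Ctsc), and 0 to 1 when libraries were left out. The differences of some uncalled genes near 0 changed sign: Atg16l1 to 0.018 with upper-quartile scaling, and Sqstm1 to 0.023 with median-ratio and 0.042 with upper-quartile scaling. With libraries left out, Sqstm1 ran from -0.12 to 0.050, Becn1 from -0.024 to 0.047 and Ctsd from -0.0011 to 0.060. The causes were not tested.

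Same-numbered libraries did not move together (r of -0.155 to 0.062, 0 of 5 pairs over 0.1, and 2 of 5 old libraries correlated best with their own number), so the numbers were not treated as pairs. With the replicate block 0 listed genes and 0 further pathway genes were called, 26 features were called in all against 220 without it, and Snap29 had an adjusted p of 0.146. Over all features the calls were 88 higher and 61 lower with no filter, and 24 higher and 9 lower with old library 3 left out. For low genes such as Park2 the spread between libraries limits what could be seen.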
